A study of Mus musculus with 6 samples.

Results

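NRF2 (gene symbol *Nfe2l2*), its inhibitor *Keap1* and 8 antioxidant genes that NRF2 is known to drive were followed in cardiac fibroblasts (CFs) as TGFβ was added. The 10 genes were taken by symbol from the 25140 genes of the count table, and all 10 were found. They are *Nfe2l2*, *Keap1*, *Gclc*, *Gclm*, *Gsr*, *Txnrd1*, *Srxn1*, *Prdx1*, *Nqo1* and *Hmox1*. RNA-seq was performed on primary CFs from adult C57BL/6 mouse hearts, at passage 1. Cells of both groups were grown in DMEM with 25 mM glucose and 10% FBS and were kept in 1% FBS for 16 h. They then received vehicle or TGFβ at 10 ng/mL for 24 h, with 3 libraries per group. The 16 h comes from the sample description, whereas the study's methods state, for all experiments, 1% FBS from 24 h before treatment and throughout it. The study compared these groups to find the transcriptional changes of myofibroblast differentiation. Its methods call the libraries biological replicates, but the labels do not say whether they came from separate hearts. The p-values of the gene tests thus set the group difference against the spread between libraries within a group. That spread need not be the spread between animals. The sample labels and the methods name CFs, whereas the study's results text names mouse embryonic fibroblasts for this assay. The labels' name is used here.

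In resting cells KEAP1 holds NRF2 in the cytoplasm and hands it to a ubiquitin ligase for degradation. Electrophiles and peroxides modify KEAP1, and NRF2 then accumulates, enters the nucleus, pairs with a small MAF protein and binds antioxidant response elements. Its targets make and recycle glutathione, run the thioredoxin system, reduce quinones and break down heme. Much of this control acts on NRF2 protein, which mRNA levels do not measure.

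The libraries held between 27851677 and 31072338 counts. The first, the second and the third vehicle libraries of the table held 31072338, 29296570 and 29331999 counts. The TGFβ libraries held 27851677, 28894151 and 28641986 counts, and values below are listed in this order. Levels are given as CPM, a gene's counts relative to the TMM-scaled size of its library. Markers of the labelled cell type were abundant, with *Col1a1* at 19992 ± 1515 CPM in vehicle (SD, n = 3), and the summed level of 10 fibroblast markers ran from 53481 to 63310 CPM in vehicle and from 49902 to 55762 CPM with TGFβ. Of the 10, 8 fell with TGFβ and *Col1a1* and *Col1a2* did not pass, with a median log2 fold change of -0.44. The myofibroblast gene *Acta2* rose from 1333 ± 144 to 2717 ± 74.1 CPM (SD, n = 3; adjusted p = 6.93e-05 by edgeR). Markers of other cells were low in sum and not at 0. Summed endothelial markers ran from 453 to 699 CPM in vehicle and from 417 to 572 CPM with TGFβ, and leukocyte markers from 256 to 369 and from 221 to 331 CPM. Smooth muscle and pericyte markers were lower with TGFβ in sum, at 231 to 310 CPM against 348 to 428 CPM, although of the 8 genes *Cspg4* rose, *Notch3* fell and the other 6 did not pass. The part of such cells in the results below was not tested. In bulk RNA, fewer cells of a type and less RNA per cell cannot be told apart.

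The response of the 10 genes was small and went both ways. With TGFβ, *Nfe2l2* fell by 15.1%, *Gclc* rose by 18.6%, *Txnrd1* by 15.3% and *Srxn1* by 10.5%, and the other 6 did not pass the test (edgeR quasi-likelihood test, adjusted p threshold of 0.05 over all 14334 genes tested). Thus 4 of 10 genes (40.0%) were called, beside 40.7% of all genes tested. The 3 that rose stand beside 20.5% of all genes called higher, and the 1 that fell beside 20.1% called lower. The share is close to the background, so the count itself is not a result about these genes. Their changes were also modest in size. The median absolute log2 fold change was 0.13 over the 10 genes and 0.21 over all genes tested. It was 0.22 over the 4 called genes against 0.40 over all called genes. These sets were not matched on expression level, and the part of count depth in the gap was not tested. The signed median was 0.018 for the 10 genes and -0.0013 for all genes. In 5 of the 10 genes the CPM of the groups did not overlap, beside 53.3% of all genes tested.

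**Figure D1:**
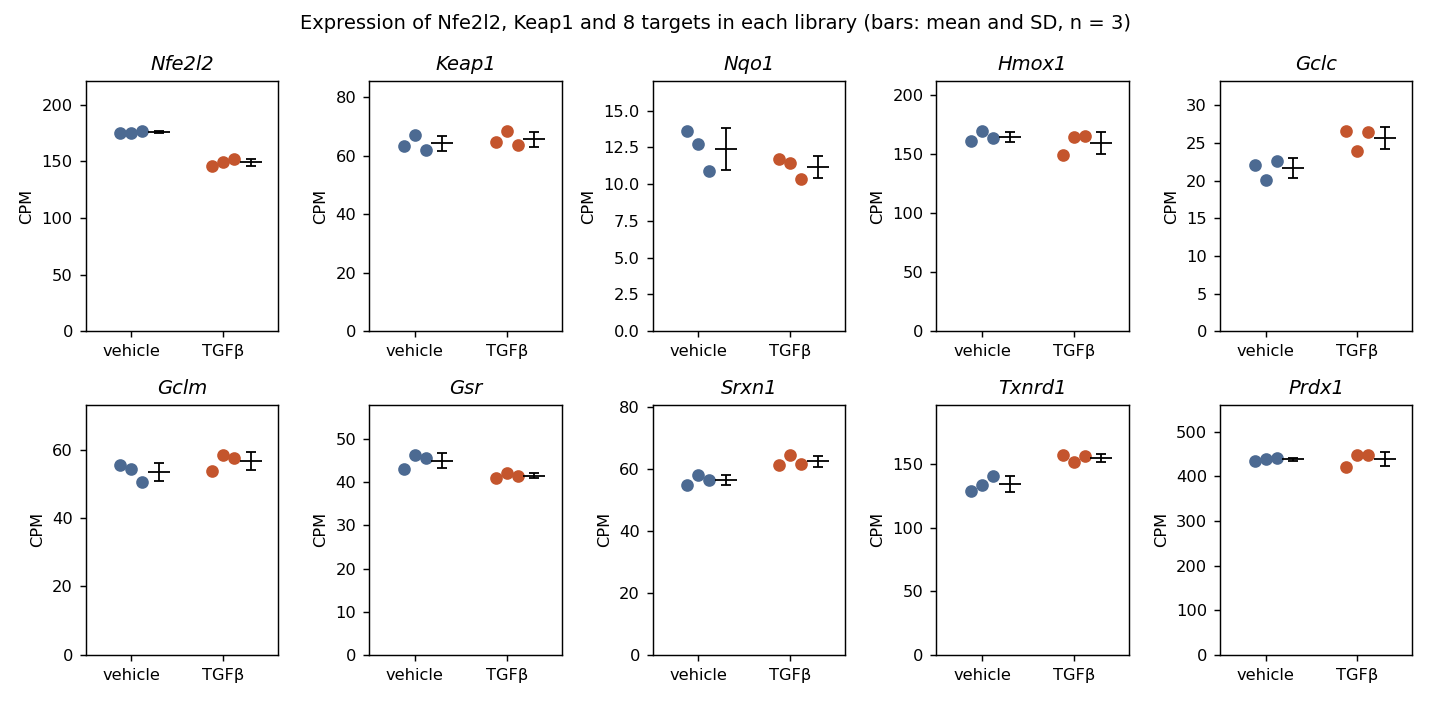
CPM (vertical axes, from 0) of each of the 10 genes in the 3 vehicle libraries (blue) and the 3 TGFβ libraries (orange), with 1 point per library and black bars for the mean and SD. The groups are apart for Nfe2l2, Gclc, Gsr, Srxn1 and Txnrd1 and overlap for the other 5 genes.

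*Nfe2l2* (ENSMUSG00000015839; GRCm38 chr2:75675513-75704641, minus strand, protein coding) encodes NRF2. Its level was 175, 175 and 177 CPM in vehicle and 146, 149.6 and 152 CPM with TGFβ. Every TGFβ library lay below every vehicle library, and the vehicle libraries lay close together. The means were 176 ± 0.811 and 149 ± 3.15 CPM (SD, n = 3), a log2 fold change of -0.24 (SE 0.04, 95% interval -0.32 to -0.15, adjusted p = 0.00178). *Nfe2l2* was called under all 12 alternative settings, with log2 fold changes from -0.26 to -0.22. Of 10372 genes compared over the 6 libraries, those whose pattern was most like that of *Nfe2l2* were *Ikbkb*, *Orai3* and *Glt8d1*. Their centred log2 CPM differed from its own by a root mean square of 0.0149, 0.0153 and 0.0174. Their log2 fold changes were -0.24, -0.25 and -0.25, while 20.1% of all genes tested were called lower. They were picked as the nearest of many genes over 6 libraries, and shared regulation was not tested.

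*Keap1* (ENSMUSG00000003308; chr9:21229730-21239361, minus strand) encodes the adaptor that presents NRF2 for degradation. It was at 63.4, 67.0 and 62.1 CPM in vehicle and 64.8, 68.4 and 63.6 CPM with TGFβ. The groups overlapped. The log2 fold change was 0.03 (95% interval -0.08 to 0.14, adjusted p = 0.621), so the interval holds changes from a fall of 5.17% to a rise of 10.2%. Of the 75-base windows of its longest transcript, 8.33% are shared with the antisense gene *Gm16754*, which held 0.123% as many counts as *Keap1*. The *Nfe2l2* to *Keap1* ratio of CPM was 2.77, 2.62 and 2.85 in vehicle and 2.25, 2.19 and 2.39 with TGFβ. The ratios of the groups were apart, by -0.27 on the log2 scale (p = 0.1 by a two-sided exact permutation test over libraries; 3 against 3 allow no lower value). Factor transcript was thus lower relative to inhibitor transcript in all 3 TGFβ libraries.

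Glutathione is made by glutamate-cysteine ligase, whose catalytic subunit is *Gclc* (ENSMUSG00000032350; chr9:77754535-77794485) and whose modifier subunit is *Gclm* (ENSMUSG00000028124; chr3:122245557-122270732). *Gclc* was at 22.1, 20.1 and 22.7 CPM in vehicle and 26.6, 23.9 and 26.4 CPM with TGFβ. All TGFβ libraries lay above all vehicle libraries, with the lowest TGFβ library close above the highest vehicle library. The log2 fold change was 0.25 (SE 0.07, 95% interval 0.09 to 0.40, adjusted p = 0.0213). This call rested on few libraries: the adjusted p was 0.0738 without the second vehicle library, 0.0802 without the first TGFβ library and 0.0657 without the third TGFβ library, while the log2 fold change stayed at 0.20 or more. *Gclm* was at 55.6, 54.4 and 50.5 CPM in vehicle and 53.7, 58.5 and 57.7 CPM with TGFβ. Its groups overlapped, and its log2 fold change of 0.08 did not pass (95% interval -0.04 to 0.21, adjusted p = 0.253), and it was 0.043 without the third vehicle library. The call for *Gclc* and its absence for *Gclm* do not by themselves show that the subunits moved apart. The *Gclm* to *Gclc* ratio of CPM was 2.52, 2.70 and 2.23 in vehicle and 2.02, 2.44 and 2.18 with TGFβ. These ranges overlapped, and the difference of -0.16 (log2) gave p = 0.2 in the two-sided exact permutation test. The difference was -0.10 without the second vehicle library or without the first TGFβ library.

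*Gsr* (ENSMUSG00000031584; chr8:33652523-33698163) encodes glutathione reductase, which returns oxidised glutathione to its reduced form with NADPH. It was at 43.0, 46.4 and 45.7 CPM in vehicle and 40.9, 42.2 and 41.4 CPM with TGFβ. The groups were apart, with the lowest vehicle library close above the highest TGFβ library. The log2 fold change of -0.12 (SE 0.04, 95% interval -0.22 to -0.01) did not pass after adjustment (adjusted p = 0.0703). It passed with upper quartile scaling (log2 fold change -0.14, adjusted p = 0.0423) and without the first vehicle library (-0.15, adjusted p = 0.0412). *Gsr* was thus the 1 gene of the 10 whose groups were apart without a call.

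In the thioredoxin branch *Txnrd1* and *Srxn1* rose and *Prdx1* did not pass. *Txnrd1* (ENSMUSG00000020250; chr10:82833951-82897712) encodes cytosolic thioredoxin reductase, which passes electrons from NADPH to thioredoxin. It was at 129, 133 and 141 CPM in vehicle and 157, 151 and 156 CPM with TGFβ. All TGFβ libraries were above all vehicle libraries. The means of 134 ± 6.18 and 155 ± 3.15 CPM (SD, n = 3) gave a log2 fold change of 0.21 (SE 0.05, 95% interval 0.10 to 0.31, adjusted p = 0.00889). Like *Nfe2l2*, it was called under all 12 alternatives. *Srxn1* (ENSMUSG00000032802; chr2:152105516-152111376) encodes sulfiredoxin, which restores overoxidised peroxiredoxins. It was at 55.0, 58.3 and 56.7 CPM in vehicle and 61.4, 64.7 and 61.6 CPM with TGFβ. The groups were apart, and the log2 fold change was 0.14 (SE 0.04, 95% interval 0.05 to 0.24, adjusted p = 0.0260). DESeq2 did not call it (adjusted p = 0.0908). The call was also lost without the first vehicle library (0.0867), the third vehicle library (0.0627) or the second TGFβ library (0.0996), at log2 fold changes between 0.12 and 0.14.

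*Prdx1* (ENSMUSG00000028691; chr4:116685544-116700822), a cytosolic peroxiredoxin that removes hydrogen peroxide, was the most abundant of the 10. Its level was 434, 439 and 441 CPM in vehicle and 421, 448 and 448 CPM with TGFβ. The TGFβ libraries spread on both sides of the vehicle libraries. The log2 fold change was 0.0036 (95% interval -0.10 to 0.10, adjusted p = 0.958), and its sign turned with the scaling, to -0.017 under upper quartile scaling. Of its 75-base windows, 5.63% are shared with other loci, *Gm21399* among them.

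The quinone and heme enzymes did not pass the test. *Nqo1* (ENSMUSG00000003849; chr8:107388225-107403206, minus strand) encodes NAD(P)H quinone dehydrogenase, often read as a reporter of NRF2 activity. It was at 13.6, 12.7 and 10.9 CPM in vehicle and 11.7, 11.5 and 10.3 CPM with TGFβ. With as few as 295 counts in a library it was the least counted of the 10, and its interval was the widest. The log2 fold change was -0.15 (95% interval -0.38 to 0.08, adjusted p = 0.261), which leaves room for a fall of 23.2% or a rise of 5.53%. The value depended on single libraries, at -0.079 without the first vehicle library (adjusted p = 0.593) and -0.24 without the third (adjusted p = 0.0696). *Hmox1* (ENSMUSG00000005413; chr8:75093621-75100589) encodes inducible heme oxygenase, which splits heme into iron, carbon monoxide and biliverdin. It was at 161, 169 and 163 CPM in vehicle and 149, 164 and 165 CPM with TGFβ. The groups overlapped, with the first TGFβ library the lowest. The log2 fold change was -0.04 (95% interval -0.16 to 0.07, adjusted p = 0.523), and without that library it was 0.0014.

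**Figure D2:**
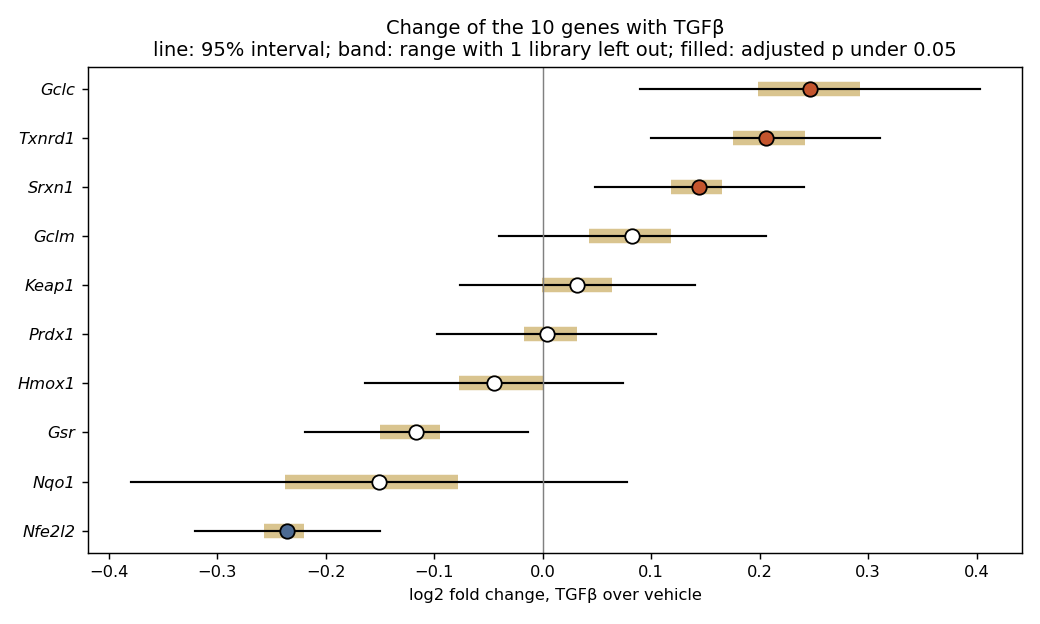
Log2 fold change with TGFβ over vehicle (horizontal axis) for the 10 genes, with black lines for 95% intervals and yellow bands for the range when 1 library is left out. Filled points passed an adjusted p of 0.05: Gclc, Txnrd1 and Srxn1 to the right of 0 and Nfe2l2 to the left, all with sizes of at most 0.25.

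Levels were compared between genes per kilobase of exons. In vehicle the order of CPM per kilobase was *Prdx1* at 172, *Hmox1* at 105, *Nfe2l2* at 71.0, *Txnrd1* at 33.0, *Srxn1* at 20.1, *Gsr* at 16.8, *Keap1* at 14.3, *Gclm* at 9.57, *Nqo1* at 7.98 and *Gclc* at 6.32. No pair of neighbours in this order overlapped over the 3 vehicle libraries. The lengths join the exons of a gene's transcripts, and *Keap1* has 4499 such bases but 3614 in its longest transcript. The order of close neighbours such as *Gsr* and *Keap1* thus depends on the length chosen. With TGFβ, *Nqo1* at 6.66 to 7.53 and *Gclc* at 6.99 to 7.76 CPM per kilobase overlapped. The lowest vehicle library of *Nqo1*, at 6.99, had lain above the highest of *Gclc*, at 6.62. The order of the other 8 stayed the same in the group means.

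**Figure D3:**
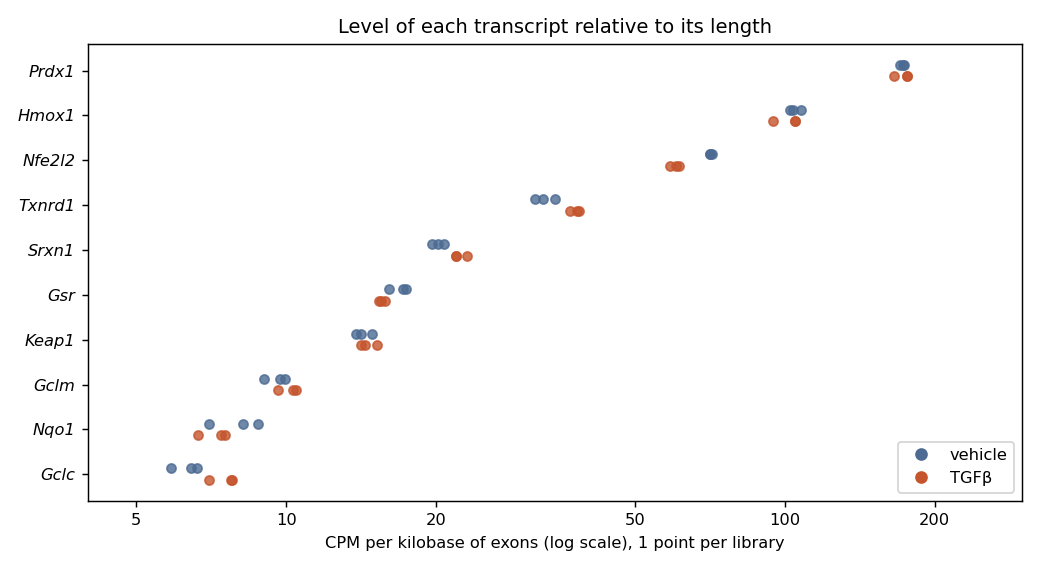
CPM per kilobase of exons (horizontal log axis) for the 10 genes, ordered by their vehicle mean, with 1 point per library in vehicle (blue) and TGFβ (orange). Prdx1 at 172 lies far above Gclc at 6.32 in vehicle, and the shift between groups is small beside the distance between genes.

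Promoter sequence was read to see which of these genes carry, close to their start, the element that NRF2 binds. This describes sequence only, and the part of the element in the changes of the transcripts was not tested. RefSeq windows (GRCm38.p6) from 250 bases before to 50 bases after the start were searched on both strands for the core of the antioxidant response element, TGACNNNGC. The table held 7 of the 10 genes, without *Hmox1*, *Gclc* and *Gsr*, in 9 windows. The core was found in 5 of these windows, of 5 genes, and in 12.4% of all 32851 promoter windows. Most of these genes were chosen as ones that NRF2 is known to drive, and *Txnrd1* holds several of the windows. A share above that of all windows is thus not a result about these genes. The 4 matches before a start are shown here 5′ to 3′ on the strand of the gene, with the core in capitals as it reads on that strand.
Nfe2l2 (chr2:75704870-75704913, minus strand): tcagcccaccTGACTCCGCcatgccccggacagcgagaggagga
Gclm (chr3:122245398-122245456, plus strand): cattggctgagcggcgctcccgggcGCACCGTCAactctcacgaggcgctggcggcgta
Prdx1 (chr4:116685441-116685499, plus strand): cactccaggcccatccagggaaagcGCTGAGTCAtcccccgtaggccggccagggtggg
Txnrd1 (chr10:82859089-82859147, plus strand): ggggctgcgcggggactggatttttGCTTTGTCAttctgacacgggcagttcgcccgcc

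These matches begin 240 bases before the start in *Nfe2l2*, 134 in *Gclm*, 133 in *Prdx1* and 92 in the second of 3 *Txnrd1* windows. The fifth match lies after the start of *Srxn1*. The windows with a match thus belong to a gene that fell (*Nfe2l2*), to genes that rose (*Txnrd1* and *Srxn1*) and to genes that did not pass (*Gclm* and *Prdx1*). The match in *Prdx1* overlaps TGAGTCA, the reverse complement of the AP-1 site TGACTCA. AP-1 sites were found in *Prdx1* and *Srxn1*, and in 5.20% of all windows. A match in letters is a description and does not show binding. Sequence outside these windows was not searched, so a window without a match does not show that a gene lacks the element.

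Around the 10 genes, 8 lists held 114 further genes of the pathway and its neighbours, of which 106 passed the filter on low counts. Of these 106, 29 rose, 31 fell and 46 did not pass, so 56.6% were called, beside 40.7% of all genes tested. The median log2 fold change of the 106 was -0.014. The lists were chosen with earlier results of these data known and were not matched to all genes on expression level. The difference between these shares was not tested, here or for the single lists below. The lists differed in their split, and several held far larger changes than the 10 genes. Counts of genes that share sequence with other gene entries are less certain. Copies and overlapping entries were not told apart. *Pgam5*, *Gpx4* and *Phgdh*, named here for this reason after their values were seen, share 61.4%, 55.3% and 47.4% of their 75-base windows with such entries. All 3 are among the called genes. They are not the only ones. Larger shares were found for *Nnt* (96.3%, with another entry of the same symbol), *Gsta1* (86.3%), *Ftl1* (84.8%) and *Abcb6* (64.5%), among others.

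Among 13 tested partners and brakes of NRF2, 5 rose, 1 fell and 7 did not pass, with a median log2 fold change of 0.12. The share called, 46.2%, is close to the 40.7% of all genes tested, so the count is not a result about these genes. *Mafg*, a small MAF partner of NRF2, rose from 65.4 ± 0.353 to 80.7 ± 6.68 CPM (SD, n = 3), a log2 fold change of 0.30 (adjusted p = 0.00527). *Dpp3*, which binds KEAP1, rose by 0.27 on the log2 scale (adjusted p = 0.00207). The gene that fell was *Bach1*, a repressor that competes with NRF2 for its elements. It went from 77.4 ± 2.65 to 57.4 ± 2.30 CPM (SD, n = 3), a log2 fold change of -0.43 (adjusted p = 0.000308). *Bach1* and *Nfe2l2* thus both fell.

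The 17 tested genes of glutathione uptake, synthesis and reduction had the highest median of the 8 lists, 0.25. Of these genes 9 rose, 5 fell and 3 did not pass. Calls made up 82.4%, beside 40.7% of all genes tested (20.5% higher and 20.1% lower). Without the second vehicle library or without the second TGFβ library, 6 rose and 4 fell, so 10 of the 17 were called. Over all genes 4489 and 4761 were called in these fits, against 5828 in the main fit. *Gss*, glutathione synthetase, which completes the tripeptide after glutamate-cysteine ligase, rose from 19.6 ± 1.14 to 29.1 ± 2.09 CPM (SD, n = 3), a log2 fold change of 0.57 (adjusted p = 0.000606). The largest rise was that of *Chac1*, which breaks glutathione down, at a log2 fold change of 0.79 (adjusted p = 0.00166). *Ggt5*, a cell-surface enzyme that cleaves glutathione conjugates, fell by 1.27 on the log2 scale, and *Glrx*, a glutaredoxin, by 0.95. Beyond the naming rule, and chosen after their values were seen, *Slc7a11* and *Slc3a2* form the cystine importer that supplies cysteine for glutathione. They rose by 0.48 and 0.49 on the log2 scale (adjusted p = 0.00087 and 0.000191). *Gpx3*, a secreted peroxidase chosen in the same way, fell by 0.85. The median of the list was above 0. Its summed level was nonetheless lower with TGFβ, at 1369 to 1444 CPM against 1505 to 1607 CPM. A sum weighs abundant genes most. *Gpx3*, which fell, held 17619 and 20696 counts in the first and second vehicle libraries, against 6025 and 5369 for *Slc3a2*, which rose. The lower sum thus does not show that the list fell as a group, and a sum without *Gpx3* was not tested.

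Of 18 tested glutathione transferases and exporters, 10 fell, 1 rose and 7 did not pass, with a median of -0.38. The share called was 61.1%, beside 40.7% of all genes tested (20.5% higher and 20.1% lower). *Gstt1* went from 25.5 ± 2.93 to 6.30 ± 0.360 CPM (SD, n = 3), a log2 fold change of -2.01 (adjusted p = 1.00e-05). *Gstm1* fell by 1.59 on the log2 scale (adjusted p = 0.000115), with 14.8% of its 75-base windows shared with other loci. The gene that rose was *Gsto1*, an omega-class transferase, from 64.2 ± 6.95 to 146 ± 11.6 CPM (SD, n = 3; log2 fold change 1.19, adjusted p = 5.68e-05).

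Of 14 tested genes of the thioredoxin and peroxiredoxin system, 5 rose, 3 fell and 6 did not pass, with a median of 0.096. The share called was 57.1%, beside 40.7% of all genes tested (20.5% higher and 20.1% lower). *Prdx3*, the mitochondrial peroxiredoxin, rose by 0.37 on the log2 scale (adjusted p = 0.000372), and *Txn1*, the cytosolic thioredoxin that *Txnrd1* reduces, by 0.30 (adjusted p = 0.00121). *Txnip*, which binds and inhibits thioredoxin, fell by 0.39 (adjusted p = 0.000173), with 16.7% of its windows shared with the antisense gene *Gm15441*. *Sesn1*, a sestrin, fell by 0.58 (adjusted p = 0.00130).

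The reductases draw on NADPH. Of 10 tested enzymes that make NADPH or work beside those that do, 2 rose, 1 fell and 7 did not pass, with a median of 0.028. The share called, 30.0% of 10 genes, stands beside 40.7% of all genes tested, so the count is not a result about these genes. *Mthfd1*, an enzyme of the folate cycle, rose by 0.36 on the log2 scale. *Taldo1*, transaldolase, which makes no NADPH itself, rose by 0.15 (adjusted p = 0.0269). The call for *Taldo1* was lost without the second or the third vehicle library (adjusted p = 0.0693 and 0.0789) and without the first or the second TGFβ library (0.0539 and 0.0934), which left 1 rise in the list. Without the third vehicle library 2 genes of the list fell, and without the third TGFβ library 3 rose. *Aldh1l1*, a folate enzyme that also yields NADPH, fell by 0.62, with 7.17% of its windows shared with *Gm15756*.

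Heme and iron genes, which work beside *Hmox1*, had 1 rise, 4 falls and 6 that did not pass among 11 tested, with a median of -0.15. The share called, 45.5%, is close to the 40.7% of all genes tested, so the count is not a result about these genes. *Tfrc*, the transferrin receptor for iron uptake, rose from 51.2 ± 0.159 to 88.6 ± 0.930 CPM (SD, n = 3; log2 fold change 0.79, adjusted p = 7.59e-06). *Fth1*, the ferritin heavy chain that stores iron, fell from 1149.9 ± 96.7 to 718 ± 67.3 CPM (SD, n = 3; log2 fold change -0.68, adjusted p = 0.000677). *Blvrb*, a biliverdin reductase, fell by 0.44 (adjusted p = 0.00705).

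The other detoxification genes of the NRF2 programme, where *Nqo1* belongs by function, had 6 falls, 1 rise and 7 that did not pass. Their median was -0.12. Calls were made for 7 of the 14 tested, beside 40.7% of all genes tested (20.5% higher and 20.1% lower). The list is small, and its difference from these shares was not tested. *Aldh3a1*, an aldehyde dehydrogenase, went from 10.6 ± 2.94 to 1.41 ± 0.629 CPM (SD, n = 3), a log2 fold change of -2.90 (adjusted p = 0.000317). *Aox1*, aldehyde oxidase, fell by 1.15 on the log2 scale. *Akr1b8*, an aldo-keto reductase, rose by 0.44 (adjusted p = 0.0202). Its call was lost without the second or the third vehicle library (adjusted p = 0.0509 and 0.0570) and without the first or the second TGFβ library (0.0716 and 0.0655), which left 0 rises in the list, and without the first vehicle library there were 2.

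Some glutathione genes also answer to ATF4, the factor of the amino acid stress response, so its genes were listed too. Of 12 tested, 7 rose, 1 fell and 4 did not pass, with a median of 0.23. Calls made up 66.7%, beside 40.7% of all genes tested (20.5% higher and 20.1% lower). *Chac1* and *Slc7a11* belong to both this list and the glutathione list, so their rises are counted in both. The part of ATF4 in these changes was not tested. *Asns*, asparagine synthetase, rose by 0.58 on the log2 scale (adjusted p = 0.000197). *Cebpb*, a transcription factor, fell by 1.06, with 16.7% of its windows shared with *Tmem189*.

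**Figure D4:**
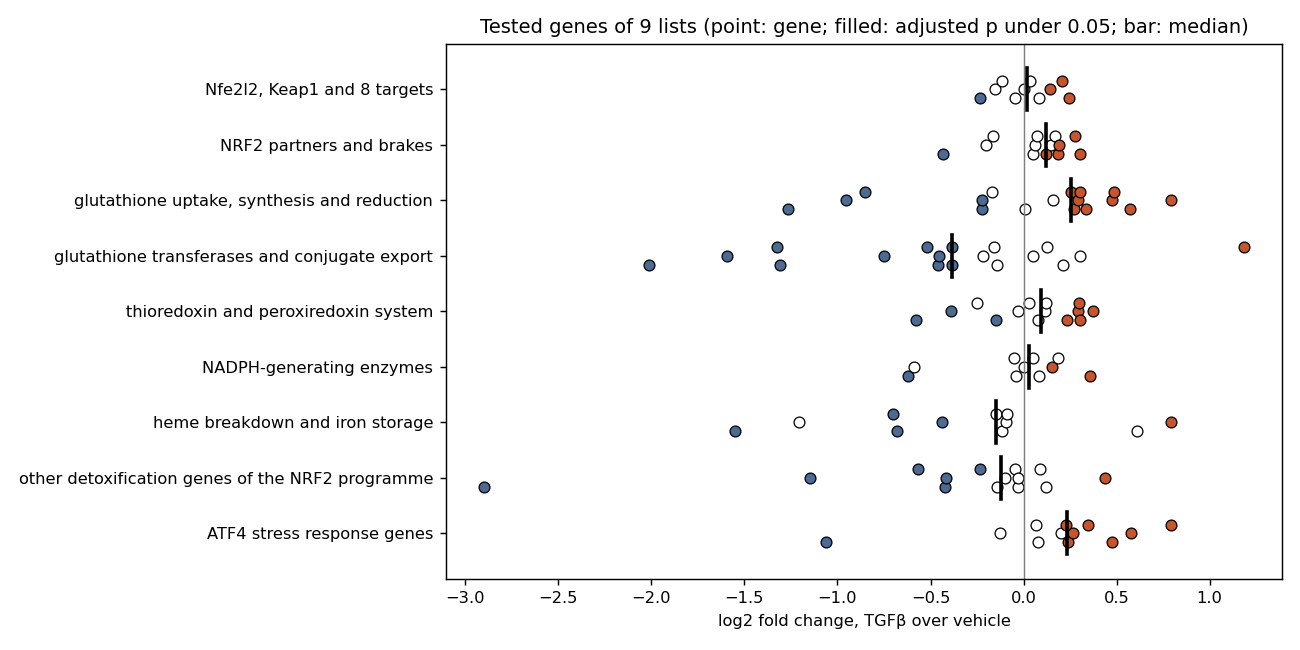
Log2 fold change with TGFβ over vehicle (horizontal axis) of every tested gene in the 10-gene set and the 8 lists, 1 point per gene, orange where it rose, blue where it fell and white where it did not pass an adjusted p of 0.05, with bars for medians. The 10 genes lie within -0.24 and 0.25, while transferases reach -2.01 and the detoxification genes -2.90.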

How the data were processed

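Gene counts were analysed for 3 vehicle and 3 TGFβ libraries. The authors deposited raw counts per gene from stranded mRNA libraries sequenced as single 75-base reads, on build mm10 (GRCm38). The aligner and counter are not given in the sources used here. The same table holds the authors' DESeq2 fold changes and p-values, which were not used. Headers name the group and no replicate, so libraries are identified by total count. Replicates differed beyond sampling noise (chi-square per gene of 7.41 or more).

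Counts were tested with edgeR 4.0.16 in R 4.3.3 (TMM, filterByExpr, quasi-likelihood test, Benjamini-Hochberg adjustment over 14334 genes, threshold 0.05). The biological coefficient of variation was 7.97%. DESeq2 1.42.0 and limma 3.58.1 (voom), other scalings and filters, and leaving out each library were alternatives. Scripts were tested on simulated data. Exon lengths, loci and shared 75-base windows came from GENCODE M21, in which 25086 gene identifiers matched, and promoters from RefSeq. The 10 genes had 295 to 13803 counts per library, and precision reflects both these counts and the spread between replicates.

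All 10 genes were named. Of each of the 8 pathway lists, up to 2 genes each way with the largest called change and a mean of at least 5 CPM were named. Marker lists contributed at most 3 genes each. The 10 genes and the lists were chosen with earlier results of these data known.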

Additional observations from a re-analysis of the deposited data

How the results depend on the processing

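*Nfe2l2* and *Txnrd1* kept direction and call under every alternative tried. Over the 10 genes and 12 alternatives, 102 of 120 values kept both direction and side of the threshold, 7 lost the call, 2 gained it and 9 changed sign. The sign changes were in genes without a call. *Prdx1* was -0.0018 (log2) with DESeq2 size factors in edgeR and with DESeq2, -0.017 with upper quartile scaling and -0.0053 with a filter of 1 CPM. With 1 library left out it ran from -0.017 to 0.032, *Nqo1* from -0.24 to -0.079, *Gclm* from 0.043 to 0.12, the *Gclm* to *Gclc* difference from -0.24 to -0.10, *Keap1* from -0.00095 to 0.064 and *Hmox1* from -0.077 to 0.0014. The count of called genes among the 10 was 4 in the main fit (all genes 5828). It was 3 to 4 with 1 library left out (all genes 4489 to 5481). It was 3 with DESeq2 (all genes 5038) and 5 with upper quartile scaling (all genes 5760). At an adjusted p of 0.01 it was 2 (all genes 3595), and with an absolute log2 fold change above 1 it was 0 (pathway lists 10, all genes 971), since the threshold is stricter. Among the other named genes, 328 of 336 values kept direction and side and 8 lost the call. The total called per list, an alternative chosen after seeing the data, stayed within 1.5 times, while rises and falls moved by more in the NADPH list and rises in the other detoxification list.

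No paired analysis was possible because the table's columns carry no replicate number. With 3 libraries per group the exact permutation test cannot go below 0.1. *Nqo1* had the fewest counts and the widest interval of the 10 genes, and how far depth and replicate spread each set that width was not tested.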
